A study of Homo sapiens with 6 samples.

Results

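Integrins are receptors that hold cells to the extracellular matrix; each is a pair of an alpha and a beta subunit, and the pair decides which matrix protein is bound. Their beta tails bind talin and kindlin inside the cell, which switch the receptor to its active form and recruit vinculin, paxillin, zyxin, kinases and the actin crosslinkers of the focal adhesion. In carcinoma cells of the pancreas, integrins that bind laminin, collagen and fibronectin are used for attachment, spreading and migration. The 40 genes described here, out of 30727 genes listed in each file, are 12 alpha subunits, 7 beta subunits and 21 intracellular adhesion proteins, chosen by name. All 40 were found by their numeric gene ID.

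The samples are 3 RNA libraries of PANC-1 cells given siRNA against SUV420H2 and 3 of control PANC-1 cells, made from poly(A) RNA; PANC-1 is a human line established from a ductal carcinoma of the pancreas. SUV420H2, now called KMT5C, methylates lysine 20 of histone H4. Which control was used, the siRNA sequences and how long the treatment lasted are not stated in the labels, so an effect of losing SUV420H2 and other effects of the siRNA treatment cannot be told apart. Whether each library had its own culture is not labelled, so the p-values reflect no more than the spread among these libraries, which may be technical. In bulk RNA, fewer cells that express a gene and less RNA per cell cannot be told apart either.

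The knockdown libraries held 27007534 to 38022772 counted reads and the control libraries 20863594 to 25931995. KMT5C had 6.03, 6.11 and 5.86 CPM (reads as a share of the library, scaled between libraries) in the knockdown, against 9.55, 7.23 and 12.7 CPM in the controls. It fell by 0.72 on the log2 scale (SE 0.163, edgeR adjusted p = 0.00227), and by less without control replicate 3 (−0.50). The labels carry no replicate numbers, so the libraries are numbered here within each group in the order of their records, which pairs none of them. Control replicate 3 stood apart from the other controls: the chi-square per degree of freedom between its counts and theirs was 11.3 and 13.6. That value was 1.98 to 2.26 among the knockdown libraries and 1.55 for the other control pair. Control replicate 3 was also the control farthest from the control median for 21 of the 35 members tested. The median coefficient of variation of those 35 members was 2.59% in the knockdown and 7.15% in the controls. Of the keratin genes listed as carcinoma markers, KRT8 had 2590 and 893 CPM and KRT18 2343 and 791 CPM in knockdown and control. KRT19 had 734 CPM in the knockdown and 915 CPM in the controls. KRT7 was less abundant than these, at 19.0 CPM in the knockdown and 7.74 CPM in the controls. Of the genes listed as leukocyte and platelet markers, PTPRC had 2 reads in the knockdown libraries together and 1 in the controls. ITGB2, the most abundant of that list, had 955 and 452 reads.

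Most members changed, and they did not change in a common direction. Of the 35 members with enough reads to be tested, 17 rose and 13 fell in edgeR's quasi-likelihood test at an adjusted p of 0.05, and 5 did not pass (ITGA2, TLN2, LIMS1, FLNA and ACTN4). Without control replicate 3, 33 of 36 members tested were called, against 73.1% of all genes (36.4% higher and 36.7% lower). The counts over all 6 libraries stand against a background in which 67.3% of 15190 genes tested were called, 33.1% higher and 34.2% lower in the knockdown. Knockdown and control values were separate for 31 of the 35 members, against 71.3% of all genes tested. Among the 19 integrin subunits 15 were tested, of which 8 rose, 6 fell and ITGA2 did not pass. Among the 21 intracellular proteins 20 were tested, of which 9 rose, 7 fell and 4 did not pass.

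By median, the integrin subunits differed by larger amounts than the proteins inside the cell. The 2 largest changes of all members, of TNS4 (4.14) and FERMT1 (−3.91), were nevertheless among the intracellular proteins. The median size of the log2 fold change was 0.79 for the 15 integrin subunits, 0.41 for the 20 intracellular proteins and 0.35 for all genes tested. Changes of at least 2-fold that passed the test were found for 7 of the 15 subunits, 4 higher and 3 lower, and for 2 of the 20 intracellular proteins, 1 in each direction, against 14% of all genes (8.01% higher and 6.01% lower). The signed median was 0.31 for the subunits, 0.11 for the intracellular proteins and −0.01 for all genes; among the subunits it was 0.53 for the 9 alpha subunits tested and −0.42 for the 6 beta subunits tested. In the stricter edgeR test against a 1.5-fold change, 8 subunits (5 higher, 3 lower) and 4 intracellular proteins (3 higher, 1 lower) passed, against 19.7% of all genes (10.6% higher and 9.16% lower). The 2 kinds also differed in level: 9 of the 19 subunits had a mean under 1 RPKM in each group. Of the 21 intracellular proteins, 2 in the knockdown and 3 in the controls did. Of the subunits changed at least 2-fold, ITGA1, ITGA7, ITGB7 and ITGB8 were under 1 RPKM in both groups, and ITGA3, ITGA5 and ITGB4 were above it. The difference between the 2 kinds of member is given as a description. Neither it nor the part of level in it was tested.

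**Figure D1:**
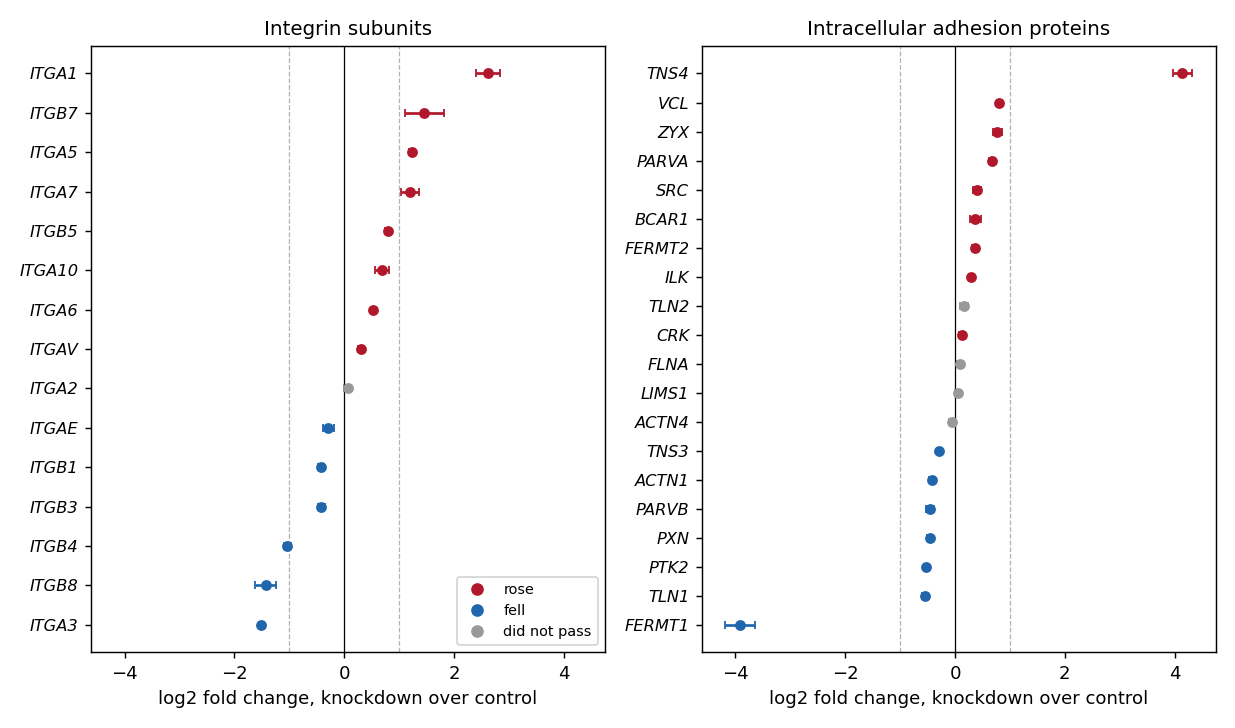
Log2 fold change (knockdown over control, horizontal axis) with its standard error for the 15 integrin subunits and 20 intracellular adhesion proteins tested; dashed lines mark 2-fold. Red points rose, blue points fell and grey points did not pass. TNS4 at 4.14 and FERMT1 at −3.91 lie farthest out on the right-hand panel, and all other intracellular proteins tested lie between the dashed lines.

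**Figure D2:**
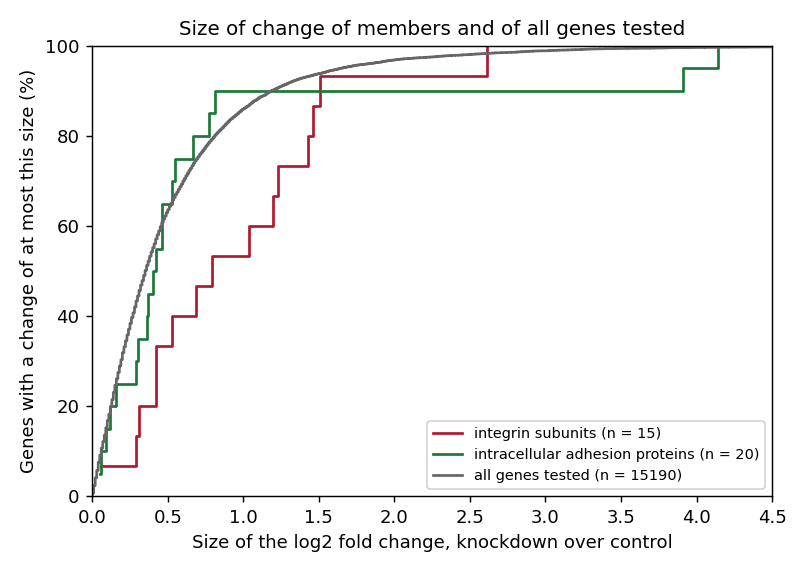
Cumulative share of genes (vertical axis, percent) by size of the log2 fold change (horizontal axis) for the integrin subunits, the intracellular adhesion proteins and all genes tested. The curve of the intracellular proteins crosses that of all genes, lying below it at a size of 0.35 and above it at 0.81. The curve of the integrin subunits lies to the right of both up to a size of about 1.5, with a median size of 0.79.

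The alpha subunits of laminin receptors moved apart. ITGA3 (gene ID 3675; RefSeq GRCh38.p14 chromosome 17, 50056110 to 50090481) pairs with ITGB1 in a receptor for laminins and was the most abundant alpha subunit of the control cells. Its level was 100.3, 100.5 and 96.9 RPKM (read density per length of gene model and per depth of library, with the authors' size factor) in the knockdown, against 270.0, 268.8 and 297.3 RPKM in the controls. All 3 knockdown libraries lay far below every control, and the library totals were large, with 14054 to 39916 reads for this gene. ITGA3 thus changed by −1.51 on the log2 scale (SE 0.0514, edgeR adjusted p = 1.74e-09), or 35.2% of the control level. ITGA6, which joins ITGB1 or ITGB4 in laminin receptors, rose instead, with 86.0, 89.5 and 86.1 RPKM in the knockdown and 60.5, 62.9 and 56.2 RPKM in the controls (log2 fold change 0.53, SE 0.0457, edgeR adjusted p = 1.66e-06). The reads are counted per gene, so the splice forms of the ITGA6 tail cannot be told apart.

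ITGA7, a laminin receptor subunit best known from muscle, was at the low end of detection. It had 0.563, 0.544 and 0.453 RPKM in the knockdown, against 0.230, 0.210 and 0.230 RPKM in the controls, with 22 to 108 reads in each. The groups did not overlap, and the rise was 2.30-fold (SE of the log2 value 0.159, edgeR adjusted p = 4.97e-05).

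The fibronectin receptor subunit ITGA5 (gene ID 3678; chromosome 12, 54395261 to 54419266) moved opposite to ITGA3. It had 167.2, 167.8 and 167.0 RPKM in the knockdown, against 67.6, 68.5 and 74.6 RPKM in the controls. The 3 knockdown values were nearly identical, with a coefficient of variation of 0.302% in CPM, and all lay above the controls. ITGA5 rose by 1.23 on the log2 scale (SE 0.0486, edgeR adjusted p = 4.56e-09), which is 2.35-fold. ITGAV, the alpha partner of ITGB3, ITGB5, ITGB6 and ITGB8 in receptors that read the RGD sequence of fibronectin and vitronectin, rose less, from levels that were already high. It had 113.5, 118.4 and 115.8 RPKM in the knockdown and 96.2, 97.7 and 83.1 RPKM in the controls (log2 fold change 0.31, SE 0.0556, edgeR adjusted p = 4.54e-04).

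Among the collagen receptor subunits, the abundant member did not pass and the rare members were higher in the knockdown. ITGA2, the subunit of the main collagen receptor of epithelia, had 42.0, 44.1 and 42.3 RPKM in the knockdown and 42.3, 43.2 and 36.6 RPKM in the controls. These groups overlapped, with a log2 fold change of 0.06 (SE 0.0566, edgeR adjusted p = 0.401). Without control replicate 3 the value was −0.01. ITGA1, which binds type IV collagen, had 0.544, 0.594 and 0.667 RPKM in the knockdown, against 0.0972, 0.0587 and 0.125 RPKM in the controls. Its knockdown libraries held 79 to 102 reads and its controls 6 to 16, and its rise of 2.61 (SE 0.219, edgeR adjusted p = 1.28e-06), 6.11-fold, was the largest of the integrin subunits tested. ITGA10, known from cartilage, rose by 0.69 (SE 0.124, edgeR adjusted p = 4.79e-04), with 0.712 to 0.873 RPKM in the knockdown and 0.459 to 0.536 RPKM in the controls.

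ITGAE, which pairs with ITGB7 on lymphocytes and binds E-cadherin, fell slightly, to 2.65, 2.10 and 2.71 RPKM in the knockdown, against 2.84, 3.04 and 3.17 RPKM in the controls (log2 fold change −0.29, SE 0.103, edgeR adjusted p = 0.0273). That call rested on knockdown replicate 2: without it the value was −0.19 (adjusted p = 0.0999; range over all alternatives 0.00568 to 1). ITGA4, ITGA9 and ITGA11 were below the count filter. ITGA4, a subunit of lymphocyte receptors, had 1 read in the knockdown libraries together and 9 in the controls. ITGA9 had 25 and 6 reads, and ITGA11, a collagen receptor subunit of fibroblasts, had 42 and 11 reads in knockdown and control. The depth-corrected count ratio, knockdown over control, was 0.0829 for ITGA4 (exact 95% interval 0.00189 to 0.599), 3.11 for ITGA9 (1.25 to 9.27) and 2.85 for ITGA11 (1.44 to 6.14), where the intervals cover counting error only.

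**Figure D3:**
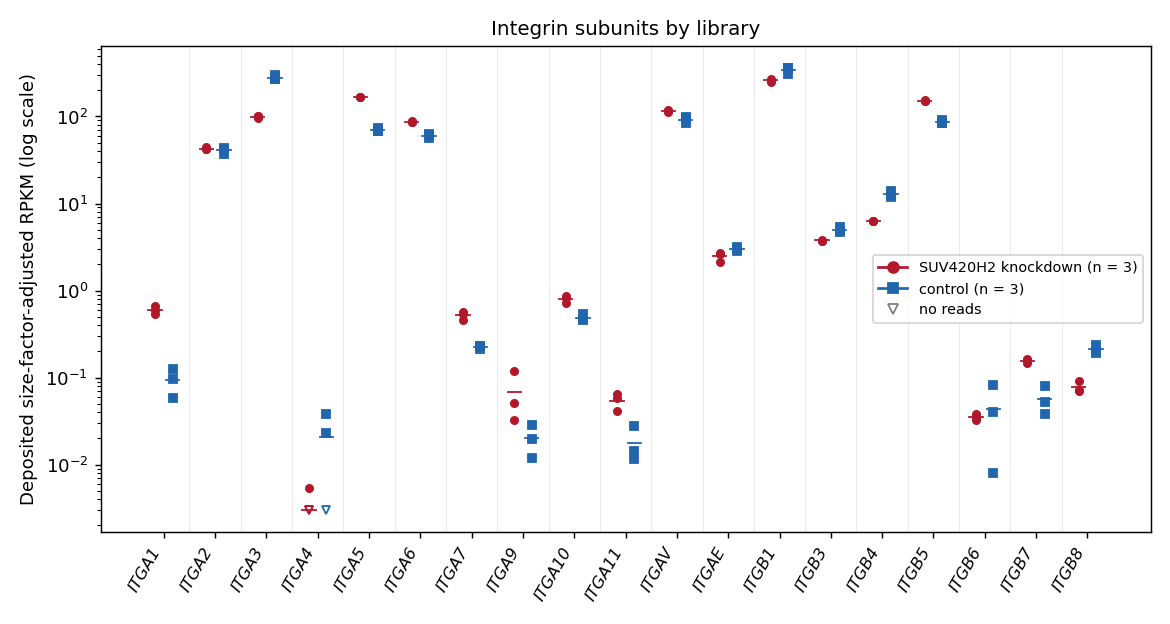
Deposited RPKM of the 19 integrin subunits in each library (logarithmic vertical axis); red circles are the 3 knockdown libraries, blue squares the 3 controls, short lines the group means and open triangles libraries with no reads, drawn at the foot of the axis. ITGA3 and ITGB4 sit lower and ITGA5 and ITGB5 higher in the knockdown, while ITGA4, ITGA9, ITGA11 and ITGB6 lie close to the limit of detection in both groups.

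All 6 beta subunits tested changed, 2 upward and 4 downward, against 67.3% of all genes called, 33.1% higher and 34.2% lower. ITGB1, the common partner of most alpha subunits, was the most abundant integrin gene of both groups. It had 250.2, 271.7 and 256.7 RPKM in the knockdown, against 357.0, 360.3 and 311.6 RPKM in the controls, and the groups did not overlap. The fall was modest, at −0.42 on the log2 scale (SE 0.0561, edgeR adjusted p = 5.29e-05). ITGB5, a partner of ITGAV in a vitronectin receptor, had 155.0, 149.2 and 150.2 RPKM in the knockdown, against 83.9, 84.3 and 90.6 RPKM in the controls. Every knockdown library exceeded every control, and the rise was 0.79 (SE 0.0460, edgeR adjusted p = 6.91e-08), 1.73-fold.

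ITGB4, the partner of ITGA6 in hemidesmosomes, where it links laminin to keratin filaments, fell to under 50% of the control level (48.7%). It had 6.37, 6.34 and 6.24 RPKM in the knockdown, against 12.5, 11.9 and 14.0 RPKM in the controls. The knockdown values were tight and separate from the controls (log2 fold change −1.04, SE 0.0646, edgeR adjusted p = 1.20e-07). ITGB3, another partner of ITGAV, had 3.82, 3.75 and 3.75 RPKM in the knockdown and 4.86, 5.35 and 4.75 RPKM in the controls (log2 fold change −0.42, SE 0.0648, edgeR adjusted p = 1.66e-04). In GENCODE 29, 51.6% of its exon bases also lie in an exon of a transcript named AC068234.1, so its value is uncertain.

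The remaining beta subunits were scarce. ITGB8, which with ITGAV activates latent TGF-beta, fell to 0.0918, 0.0728 and 0.0696 RPKM in the knockdown, against 0.240, 0.189 and 0.202 RPKM in the controls, with 18 to 55 reads in each (log2 fold change −1.43, SE 0.188, edgeR adjusted p = 4.67e-05). ITGB7, a lymphocyte subunit, had 17, 13 and 15 reads in the knockdown libraries, against 4, 5 and 3 in the controls. Its rise of 1.46 (SE 0.354, edgeR adjusted p = 0.00360) is uncertain, since 51.4% of its exon bases are shared with exons of ZNF740 and no label or header says that the counting used strand. ITGB6, the epithelial partner of ITGAV, was not tested, with 6, 5 and 5 reads in the knockdown libraries, against 10, 4 and 1 in the controls (count ratio 0.796, exact 95% interval 0.369 to 1.73). A transcript named AC092153.1 shares 20.6% of the ITGB6 exon bases.

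Set side by side per length, the mixture of alpha subunits differed between the groups while its total differed little. The 12 alpha subunits together had 513.7, 524.5 and 512.8 RPKM in the knockdown, against 540.3, 545.0 and 551.9 RPKM in the controls. ITGA3 made up 19.2% ± 0.317 of that sum in the knockdown and 51.1% ± 2.46 in the controls (SD, n = 3 each). ITGA5 made up 32.4% ± 0.325 in the knockdown and 12.9% ± 0.569 in the controls, and took the place of ITGA3 as the leading alpha subunit. Laminin-binding alpha subunits (ITGA3, ITGA6 and ITGA7) held 36.2% ± 0.329 in the knockdown and 62.1% ± 1.75 in the controls, and the subunits of RGD receptors (ITGA5 and ITGAV) 54.8% ± 0.318 and 29.8% ± 1.06. The collagen-binding subunits held 8.56% ± 0.121 in the knockdown and 7.57% ± 0.710 in the controls.

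The order of the alpha subunits was therefore different. In the knockdown the mean RPKM ran ITGA5, ITGAV, ITGA3, ITGA6 and ITGA2, and in the controls ITGA3, ITGAV, ITGA5, ITGA6 and ITGA2, and no neighbours in either order overlapped between libraries. Among the beta subunits ITGB1 and ITGB5 led in both groups. ITGB1 made up 61.6% ± 1.40 of the summed beta RPKM in the knockdown and 76.6% ± 2.26 in the controls, and ITGB5 36.0% ± 1.34 in the knockdown and 19.4% ± 1.87 in the controls. Each of these shares was separate between the groups, with an exact two-sided permutation p of 0.1, the smallest that 3 against 3 allows (0.112 after Benjamini-Hochberg adjustment over 28 shares, ratios and sums).

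Ratios within a library do not depend on how libraries are scaled. The ratio of ITGA5 to ITGA3 was 1.67, 1.67 and 1.72 in the knockdown, against 0.250, 0.255 and 0.251 in the controls, a 6.69-fold difference that was tight in both groups. The ratio of ITGB5 to ITGB1 was 0.619, 0.549 and 0.585 in the knockdown and 0.235, 0.234 and 0.291 in the controls. The ratio of ITGB4 to ITGA6, the pair of the hemidesmosome, was 0.0740, 0.0709 and 0.0724 in the knockdown and 0.207, 0.189 and 0.248 in the controls. In contrast, the summed RPKM of 7 alpha subunits that pair with ITGB1 alone (ITGA1, ITGA2, ITGA3, ITGA5, ITGA7, ITGA10 and ITGA11), divided by that of ITGB1, was 1.25, 1.16 and 1.2 in the knockdown and 1.07, 1.06 and 1.31 in the controls. These values overlapped (exact permutation p = 0.6, adjusted 0.6). ITGA9, a further partner of ITGB1 alone, is not in that sum; it had 0.0677 RPKM in the knockdown and 0.0200 RPKM in the controls.

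**Figure D4:**
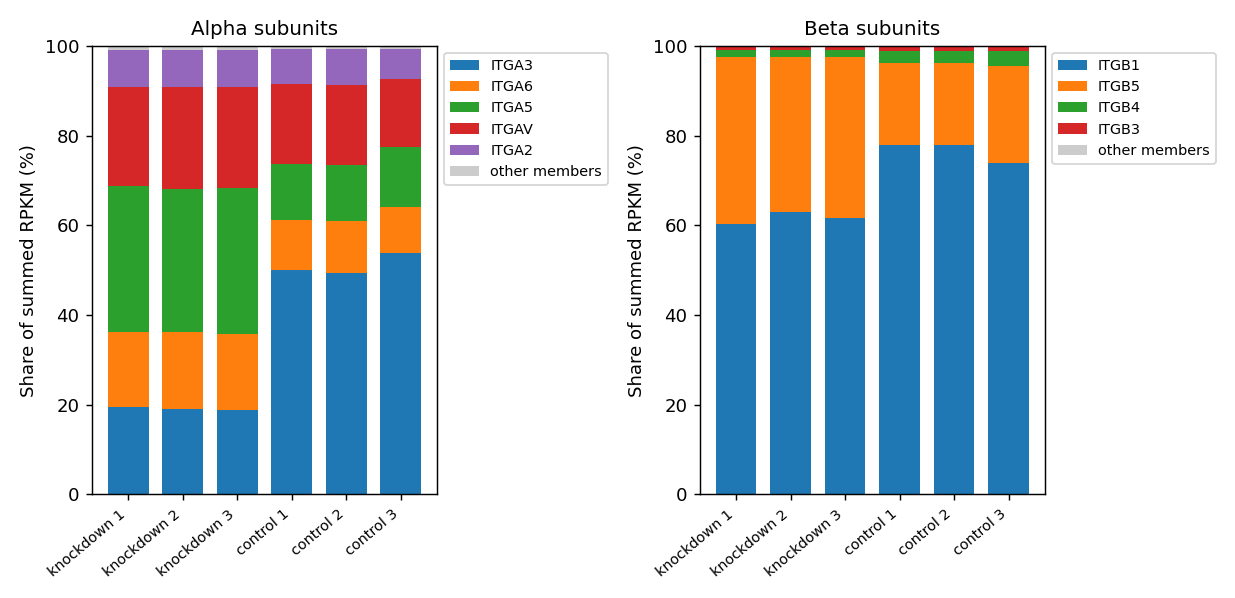
Share of each alpha subunit in the summed RPKM of the 12 alpha subunits (left) and of each beta subunit in that of the 7 beta subunits (right), in percent, for each of the 3 knockdown and 3 control libraries. The ITGA3 segment covers about 19% in each knockdown library and 49% to 54% in the controls, and the ITGB5 segment 35% to 37% in the knockdown and 18% to 22% in the controls.

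Inside the cell, the proteins that activate integrins moved in different directions. TLN1, the main talin, had 46.8, 46.9 and 44.9 RPKM in the knockdown, against 64.3, 66.3 and 69.3 RPKM in the controls. The groups were well separated, and TLN1 fell by 0.55 on the log2 scale (SE 0.0446, edgeR adjusted p = 1.01e-06). TLN2, its close relative, had 1.97 ± 0.106 RPKM in the knockdown and 1.74 ± 0.0883 RPKM in the controls and did not pass (log2 fold change 0.16, edgeR adjusted p = 0.0573), although it did under 5 of the alternatives, for example without control replicate 3 (adjusted p = 0.0134; range over all alternatives 0.0134 to 1).

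The kindlins, which bind beta tails beside talin, moved in opposite directions. FERMT2, the kindlin of most adherent cells, had 21.5, 22.5 and 22.4 RPKM in the knockdown, against 17.4, 17.0 and 16.5 RPKM in the controls (log2 fold change 0.36, SE 0.0454, edgeR adjusted p = 3.04e-05). FERMT1, the kindlin of epithelia whose loss causes Kindler syndrome, fell to 3, 6 and 7 reads in the knockdown libraries, against 71, 48 and 66 reads in the controls. That is 0.0149, 0.0420 and 0.0444 RPKM in the knockdown and 0.535, 0.437 and 0.482 RPKM in the controls. Its log2 fold change of −3.91 (SE 0.272, edgeR adjusted p = 2.81e-07), 6.64% of the control level, was the largest fall among the members. FERMT1 was nevertheless a small part of the kindlin RNA of the controls, where FERMT2 was far higher per length.

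Vinculin, which ties talin to actin, and zyxin, which gathers where adhesions bear tension, both rose. VCL (gene ID 7414; chromosome 10, 73998116 to 74121363) had 216.2, 223.9 and 217.5 RPKM in the knockdown, against 125.0, 126.6 and 119.3 RPKM in the controls. Its groups lay far apart, and the rise was 0.81 (SE 0.0395, edgeR adjusted p = 1.96e-08), 1.75-fold. The ratio of VCL to TLN1 was 4.62, 4.78 and 4.84 in the knockdown and 1.94, 1.91 and 1.72 in the controls. AP3M1 shares 16.6% of the VCL exon bases. ZYX had 123.8, 131.0 and 120.3 RPKM in the knockdown, against 69.0, 65.3 and 82.5 RPKM in the controls, of which replicate 3 was the highest (log2 fold change 0.77, SE 0.0791, edgeR adjusted p = 6.34e-06).

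The signalling proteins of the adhesion were divided as well. PTK2, the focal adhesion kinase, had 31.3, 31.4 and 30.6 RPKM in the knockdown, against 44.5, 46.2 and 42.4 RPKM in the controls. It fell by 0.53 on the log2 scale (SE 0.0421, edgeR adjusted p = 7.89e-07), and so did its scaffold PXN, paxillin, which fell by 0.46 (SE 0.0423, edgeR adjusted p = 2.44e-06), with 82.4 ± 1.48 RPKM in the knockdown and 112.3 ± 3.45 RPKM in the controls. SRC, the kinase that acts with PTK2, rose by 0.40 (SE 0.0812, edgeR adjusted p = 0.00117) and the substrate of both, BCAR1, by 0.37 (SE 0.0976, edgeR adjusted p = 0.00556). SRC had 11.1 ± 0.145 RPKM in the knockdown and 8.29 ± 1.02 RPKM in the controls, and BCAR1 16.6 ± 0.578 RPKM in the knockdown and 12.6 ± 2.14 RPKM in the controls, with control replicate 3 the nearest to the knockdown for both. CRK, an adaptor that binds BCAR1, was at 0.12 (SE 0.0445, edgeR adjusted p = 0.0329); this small rise was lost without any of the 3 knockdown libraries or without control replicate 2 (adjusted p = 0.0766 to 0.110; range over all alternatives 0.0172 to 1).

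The complex of ILK, PINCH and parvin, which joins beta tails to actin, changed in its parts by unequal amounts. ILK, its pseudokinase core, had 129.5, 130.8 and 129.6 RPKM in the knockdown, against 102.1, 103.7 and 106.8 RPKM in the controls. It rose by 0.30 (SE 0.0400, edgeR adjusted p = 4.99e-05), with TAF10 and other transcripts sharing 26.0% of its exon bases. PARVA, alpha-parvin, rose by 0.67 (SE 0.0447, edgeR adjusted p = 2.00e-07) to 12.4 ± 0.0783 RPKM in the knockdown, against 7.70 ± 0.339 RPKM in the controls. PARVB, beta-parvin, fell by 0.46 (SE 0.0715, edgeR adjusted p = 1.79e-04) to 10.7 ± 0.164 RPKM in the knockdown, against 14.5 ± 1.23 RPKM in the controls. The ratio of PARVA to PARVB was thus 1.16 ± 0.0217 in the knockdown and 0.536 ± 0.0627 in the controls (SD, n = 3 each), and these values did not overlap. LIMS1, PINCH itself, had 18.6 ± 0.503 and 17.8 ± 1.40 RPKM in knockdown and control and did not pass (log2 fold change 0.05, edgeR adjusted p = 0.441); it has near-identical gene copies and only uniquely aligned reads were counted, so its level is uncertain.

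The tensins, which bind beta tails and actin in mature adhesions, held the largest rise among the members. TNS4, also called Cten, lacks the actin-binding part of the other tensins. It had 1.47, 1.30 and 1.46 RPKM in the knockdown, against 0.0562, 0.0904 and 0.0906 RPKM in the controls, from 150 to 239 reads in the knockdown libraries and 6 to 10 in the controls. The groups were far apart, with a log2 fold change of 4.14 (SE 0.179, edgeR adjusted p = 8.09e-09), 17.6-fold. TNS3, the abundant tensin, fell to 88.9, 92.0 and 85.8 RPKM in the knockdown, against 107.5, 108.4 and 106.5 RPKM in the controls (log2 fold change −0.29, SE 0.0405, edgeR adjusted p = 7.08e-05). TNS1 was not tested, with 19 reads in the knockdown and 8 in the controls together (count ratio 1.77, exact 95% interval 0.741 to 4.68).

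Of the actin crosslinkers, ACTN1, alpha-actinin of stress fibres and adhesions, fell by 0.42 (SE 0.0538, edgeR adjusted p = 3.68e-05), with 104.0 ± 2.99 RPKM in the knockdown and 137.5 ± 8.93 RPKM in the controls. ACTN4, the most abundant member, had 893.5, 918.9 and 852.4 RPKM in the knockdown and 879.0, 879.7 and 980.4 RPKM in the controls, which overlapped (log2 fold change −0.06, SE 0.0553, edgeR adjusted p = 0.377). CAPN12 shares 12.6% of the ACTN4 exon bases. FLNA, filamin A, had 186.4, 191.1 and 175.5 RPKM in the knockdown, against 162.2, 164.1 and 186.6 RPKM in the controls. It did not pass (log2 fold change 0.09, SE 0.0612, edgeR adjusted p = 0.212); the overlap came from control replicate 3, without which the value was 0.16 (adjusted p = 2.55e-05; range over all alternatives 2.55e-05 to 1).

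**Figure D5:**
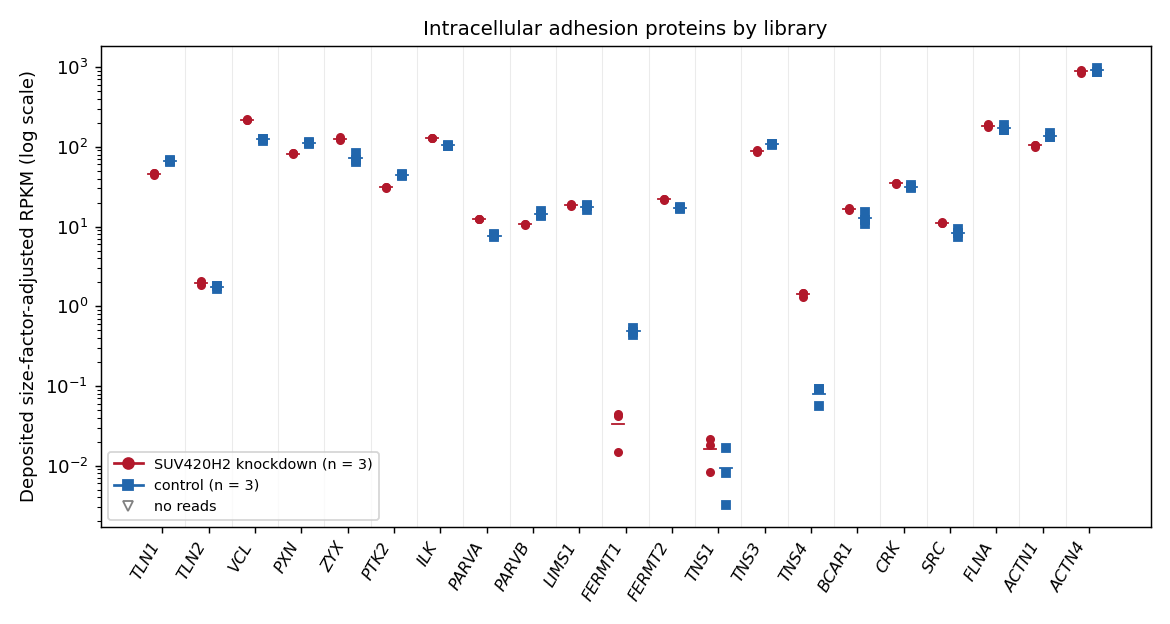
Deposited RPKM of the 21 intracellular adhesion proteins in each library (logarithmic vertical axis); red circles are the 3 knockdown libraries, blue squares the 3 controls and short lines the group means. TNS4 sits about 17.6-fold higher and FERMT1 at 6.64% of the control level in the knockdown, both at low levels, and ACTN4 leads in both groups.

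The promoters of ITGA5 and VCL, which rose, and of ITGB1 and TLN1, which fell, are shown as examples of abundant members that moved in either direction. Each is the 250 bases before the gene start from RefSeq (GRCh38.p14), written 5′ to 3′ on the strand of the gene; capitals mark every match to the motifs searched.
ITGA5, chr12:54419267-54419516, minus strand: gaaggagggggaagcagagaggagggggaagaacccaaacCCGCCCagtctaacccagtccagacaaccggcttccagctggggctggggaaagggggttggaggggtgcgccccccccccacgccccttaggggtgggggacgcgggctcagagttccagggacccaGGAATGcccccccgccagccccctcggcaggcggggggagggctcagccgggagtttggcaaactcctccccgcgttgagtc
VCL, chr10:73997866-73998115, plus strand: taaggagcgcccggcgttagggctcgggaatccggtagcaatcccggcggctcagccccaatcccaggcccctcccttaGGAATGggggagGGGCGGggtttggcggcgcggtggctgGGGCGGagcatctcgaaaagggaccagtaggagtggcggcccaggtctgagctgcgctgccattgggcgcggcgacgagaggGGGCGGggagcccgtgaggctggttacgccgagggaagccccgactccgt
ITGB1, chr10:32958231-32958480, minus strand: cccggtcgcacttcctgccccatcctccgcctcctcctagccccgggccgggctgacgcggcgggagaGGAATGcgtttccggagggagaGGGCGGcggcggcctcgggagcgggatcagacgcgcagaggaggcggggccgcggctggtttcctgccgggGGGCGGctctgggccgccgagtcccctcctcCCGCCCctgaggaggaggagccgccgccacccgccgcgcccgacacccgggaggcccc
TLN1, chr9:35732196-35732445, minus strand: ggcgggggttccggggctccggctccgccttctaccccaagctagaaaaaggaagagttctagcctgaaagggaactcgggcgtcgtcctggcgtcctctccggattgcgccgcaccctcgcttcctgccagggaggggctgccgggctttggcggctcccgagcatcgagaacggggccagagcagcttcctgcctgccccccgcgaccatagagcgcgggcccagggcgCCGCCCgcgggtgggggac

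The motifs were searched on both strands, and matches of different motifs could overlap. The GC box (GGGCGG), bound by SP factors, was found 1 time in the ITGA5 window, 3 times in that of VCL, 3 times in that of ITGB1 and 1 time in that of TLN1. The TEAD site (GGAATG), read by the factors of the Hippo pathway, was found 1 time each in ITGA5, VCL and ITGB1, thus in genes that rose and in a gene that fell. A promoter was matched for 30 of the 40 members. None was at hand for ITGA3, ITGA7, ITGA9, ITGB3, ITGB4, PTK2, PARVA, FERMT1, TNS4 and SRC. The motif shares thus leave out the members with the largest rise and the largest fall. The GC box was present in 18 of these (60%) and in 42.6% of 35116 promoter windows of the same length, and the median GC content was 71.6% for the members and 58% for all windows. The 35116 windows were not limited to genes tested or expressed here. They are thus not a matched background, and no difference from them was tested. The TEAD site was present in 13.3% of the members and 11.9% of all windows, the E-box read by ZEB factors (CAGGTG) in 16.7% and 17.5%, the AP-1 site (TGANTCA) in 6.67% and 6.57%, and the TATA box (TATAAA) in 3.33% and 10.7%. The CArG box of the serum response factor was present in ITGB6 and FLNA, and in 1.16% of all windows. A match describes letters in the window and does not show that a factor binds there.

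Other genes of the pathway also went both ways. Of 17 further integrins and paralogs of the members, 11 were tested, 7 rose and 1 fell. LIMS2, the second PINCH gene, rose by 2.76 (SE 0.119, edgeR adjusted p = 7.96e-09) to 2.68 ± 0.0906 RPKM in the knockdown, against 0.387 ± 0.0633 RPKM in the controls, and the muscle filamin FLNC by 2.04 (SE 0.0829, edgeR adjusted p = 5.17e-09). TNS2, a further tensin, fell by 0.39 on the log2 scale (SE 0.0644). Of 55 other names for proteins of the adhesion plaque, 49 genes were tested, 21 rose and 15 fell. ENAH, an actin-elongating relative of VASP, rose by 1.10 (SE 0.0455) and RAP1B, a GTPase that brings talin to integrins, by 1.01 (SE 0.101). TGFB1I1, the paxillin relative HIC-5, fell by 0.91 (SE 0.0820).

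Among 7 hemidesmosome partners of ITGB4, 6 were tested, 3 rose and 2 fell. LAMA3, a chain of the laminin that ITGA3 and ITGA6 receptors bind, rose by 1.87 (SE 0.0810) and LAMB3, a second chain, by 0.57 (SE 0.0978). PLEC, the plectin that ties ITGB4 to keratin, fell by 0.51 (SE 0.0964) and the tetraspanin CD151 fell by 0.21 (SE 0.0697); the CD151 call was lost without knockdown replicate 2 or 3, and its value was −0.12 without control replicate 3. Of 31 integrin ligands 27 were tested, 16 rose and 5 fell. VTN, vitronectin, rose by 3.84 (SE 0.262) to 2.14 ± 0.102 RPKM in the knockdown, against 0.150 ± 0.0922 RPKM in the controls. COL3A1, a fibrillar collagen, rose by 4.36 (SE 0.174) to 1.2 RPKM in the knockdown, against 0.0555 RPKM in the controls, with 4 to 10 reads in each control. The laminin chain LAMA4 fell by 1.91 (SE 0.0613), and the chain LAMB2 fell by 1.24 (SE 0.0620).

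Of 19 names of membrane partners, 18 genes were tested, 8 rose and 8 fell. PLAUR, the urokinase receptor, rose by 1.29 (SE 0.0978) and the proteoglycan SDC1 by 0.95 (SE 0.0600). CD82, a tetraspanin, fell by 1.04 (SE 0.0938) and CD44, the hyaluronan receptor, fell by 0.97 (SE 0.0437), to 161.7 ± 2.46 RPKM in the knockdown, against 313.2 ± 16.0 RPKM in the controls. Among genes of actomyosin, MYL9, a myosin light chain, rose by 1.29 (SE 0.0681) and the myosin heavy chain MYH10 by 0.70 (SE 0.0524), whereas MYH9, the other main heavy chain, fell by 0.73 (SE 0.0515) and ACTG1, gamma-actin, fell by 0.54 (SE 0.0473). Every gene given as risen or fallen in these lists passed the edgeR test at an adjusted p of 0.05, and the shares called are to be read against the 67.3% of all genes.

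Markers of other cell types were measured beside the members. Of 14 leukocyte and platelet markers 6 were tested and 4 rose, and their summed level was 18.0 to 20.2 CPM in the knockdown and 11.2 to 13.5 CPM in the controls. ITGB2, the leukocyte beta subunit, held most of it, with 10.1 CPM in the knockdown and 6.31 CPM in the controls. FERMT3 had 297 reads in the knockdown and 146 in the controls, ITGAM 181 and 135, and CD14 173 and 38. CD3E had 1 read and PARVG 1 read in each group. Of 10 markers of fibroblasts and endothelium 2 were tested and both rose, with sums of 8.15 to 9.02 CPM in the knockdown and 2.44 to 2.82 CPM in the controls, led by PDGFRB. DCN had 1 read in the knockdown and none in the controls, and PECAM1 had 2 and 1 reads. Of 9 markers of neurons and glia 3 were tested, 2 rose and 1 fell; their sums, 252.7 to 258.9 CPM in the knockdown and 236.5 to 241.1 CPM in the controls, came almost wholly from MBP, and GAP43 and AQP4 had no reads. Of the 9 markers of the carcinoma of the pancreatic duct 8 were tested, 5 rose and 3 fell, with sums of 9988 to 10333 CPM in the knockdown and 7755 to 8995 CPM in the controls; KRT8, KRT18, KRT7, EPCAM and CDH1 rose, and KRT19, SOX9 and VIM fell. CDH1, E-cadherin, had 378 CPM in the knockdown and 34.4 CPM in the controls, and VIM, vimentin, the most abundant of the list, had 3813 CPM in the knockdown and 5403 CPM in the controls. The counts called in these marker lists are to be read against the 67.3% of all genes called, 33.1% higher and 34.2% lower. The part of these cell type markers in the changes of the members was not tested.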

How the data were processed

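Poly(A) RNA of 3 SUV420H2 knockdown and 3 control libraries of PANC-1 was sequenced, and groups were taken from the siRNA label. Per the submitters' processing notes, reads were aligned with GSNAP to GRCh38; version, annotation release and strand setting are not stated there. Per the file headers, each deposited file holds the count of uniquely aligned reads per gene model and the RPKM after the authors' size factor. Count over RPKM was a constant per library times a constant per gene, so both columns hold the same measurement. Counts served all tests of single genes; RPKM served levels between genes, and the shares, ratios and sums with their exact two-sided permutation tests. Of 30727 gene IDs, 27814 had a RefSeq GRCh38.p14 symbol; the rest, with 0.323% to 0.338% of each library's reads, were tested too. No libraries were identical. Every pair within a group differed by more than sampling noise, with a chi-square per degree of freedom of at least 1.55.

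Counts were filtered with filterByExpr (minimum count 10, minimum total 15; 15190 genes kept), scaled (TMM) and tested in edgeR 4.0.16 under R 4.3.3 (quasi-likelihood, two-sided, Benjamini-Hochberg over all genes, threshold 0.05). The script was tested on simulated data. Fold changes are knockdown over control. Alternatives were other scalings, filters, limma-voom (limma 3.58.1), DESeq2 1.42.0, a test against a 1.5-fold change, equal depth, a length trend and leaving out each library. Members and lists, the motifs and the promoters shown were chosen with earlier results of these data known. All 40 members are named; members changed at least 2-fold, every beta subunit, TLN1, VCL, PTK2 and ILK are given in each library, and others as space allowed. Other lists give up to 2 rises and 2 falls of largest size with mean log2 CPM of at least 1. A few results of these lists are not reported here.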

Additional observations from a re-analysis of the deposited data

How the results depend on the processing

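Of the 35 members tested, none changed direction under another scaling, filter, test, depth or length correction, and DESeq2's Wald test, limma-voom and upper-quartile scaling gave the same call for every member they tested. The test against a 1.5-fold change, a stricter null, ended 18 member calls and left 2998 genes of the whole table, 5 integrin subunits higher and 3 lower, 3 intracellular proteins higher and 1 lower, and 21 higher and 11 lower genes of the other lists. Under a minimum mean log2 CPM of 1, 5 subunits were higher, since that filter removes the rare subunits. With no low-count filter, ITGA11 (1.48, edgeR adjusted p = 0.00493), ITGA9 (1.58, 0.0333) and ITGA4 (−3.13, 0.0244) also passed, whereas ITGB6 (0.674) and TNS1 (0.361) did not. Without control replicate 3 the uncalled values of ITGA2 and LIMS1 turned (ranges over the libraries left out −0.01 to 0.10 for each) and ACTN4 reached 0.00 (−0.08 to 0.00); 33 of 36 members tested then passed, against 73.1% of all genes. Leaving out each library gave 9184 to 11277 genes, 8 to 9 subunits higher and 5 to 6 lower, and 8 to 11 intracellular proteins higher and 7 lower. In reads not divided by length, the share of ITGA3 differed by −28.5 percentage points and that of ITGA5 by 14.4, against −31.9 and 19.5 in RPKM. No paired analysis was possible because the labels give no replicate numbers (those used here only name the libraries). Depth limits the members with under 20 reads in a library.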
